A study of Rattus norvegicus with 6 samples.

Results

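The enzymes that make creatine and those that take choline down to glycine were examined as a set of 9 genes (Gatm, Gamt, Slc6a8, Chdh, Bhmt, Dmgdh, Sardh, Pipox and Gnmt) among the 17051 genes listed for rat kidney. The rule lists the genes by name and sets no measured threshold, but the set was chosen with earlier results of these data known. All 9 were found by their symbols, each with 1 listed transcript. Poly(A)-selected RNA of kidney tissue from male Sprague Dawley rats, an outbred stock, was sequenced from 3 rats on standard laboratory chow (the AL group, labelled normal diet, rats 61, 71 and 88) and from 3 rats on a hyperammonemic diet (the HD group, rats 64, 67 and 69). The HD rats received chow powder with an added amino acid mixture composed like hemoglobin, intended to raise ammonia production, and both diets ran for a week. The rats carried no transgene or mutation, their age is not given in the labels, and neither is the part of the kidney that was taken. The comparison asked whether kidney transcript levels of these genes differed between the diets.

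Creatine is made in consecutive steps. In the mitochondria of proximal tubule cells, Gatm (glycine amidinotransferase, often called AGAT) joins the amidino group of arginine to glycine, which yields guanidinoacetate and ornithine, and it is regarded as the controlled step. Gamt (guanidinoacetate N-methyltransferase) then adds a methyl group from S-adenosylmethionine to give creatine, a step known above all from the liver, and Slc6a8 is the transporter that carries creatine into cells. The choline branch also ends in glycine. Chdh (choline dehydrogenase) starts the oxidation of choline to betaine, Bhmt (betaine-homocysteine methyltransferase) passes a methyl group of betaine to homocysteine and leaves dimethylglycine, Dmgdh (dimethylglycine dehydrogenase) removes the next methyl group to give sarcosine, and Sardh (sarcosine dehydrogenase) removes the last to give glycine. Pipox, a peroxisomal oxidase of sarcosine and pipecolic acid, can also use sarcosine, and Gnmt (glycine N-methyltransferase) runs the other way and methylates glycine to sarcosine.

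In the RefSeq sequences of build GRCr8, 8 of the 9 genes had an entry for the region around the start of transcription. The 250 bases before the start are shown for Gatm, the gene furthest apart between the diets, for Gamt, the next step of creatine synthesis, and for Bhmt, the most uneven among rats of the 8 genes above Pipox in level. Capitals mark 6-base motifs on either strand. These were TATAAA (the TATA box), GGGCGG (the GC box, CCGCCC on the other strand), AGGTCA (a nuclear receptor half-site, TGACCT on the other strand) and GTTAAT (a half-site of the tubule factor HNF1). The windows were chr3:130129094-130129343 on the minus strand for Gatm, chr7:10099034-10099283 on the plus strand for Gamt and chr2:26614430-26614679 on the minus strand for Bhmt.
Gatm: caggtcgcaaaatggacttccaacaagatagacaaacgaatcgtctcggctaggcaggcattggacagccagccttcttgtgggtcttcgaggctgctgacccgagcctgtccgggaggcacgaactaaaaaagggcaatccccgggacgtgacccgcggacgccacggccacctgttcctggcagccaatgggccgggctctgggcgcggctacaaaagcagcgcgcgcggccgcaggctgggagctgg
Gamt: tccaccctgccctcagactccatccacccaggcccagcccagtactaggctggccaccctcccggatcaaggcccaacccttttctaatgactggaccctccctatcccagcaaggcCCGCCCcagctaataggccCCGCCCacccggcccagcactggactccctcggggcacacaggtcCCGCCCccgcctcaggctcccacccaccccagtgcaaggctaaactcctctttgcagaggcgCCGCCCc
Bhmt: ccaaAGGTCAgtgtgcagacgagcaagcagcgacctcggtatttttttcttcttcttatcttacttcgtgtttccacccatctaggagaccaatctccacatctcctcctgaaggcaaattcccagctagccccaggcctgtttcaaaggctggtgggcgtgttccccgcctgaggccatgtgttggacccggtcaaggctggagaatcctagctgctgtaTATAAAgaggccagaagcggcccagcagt

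The Gatm window held none of these letters, and its GC content was 63.6%. The Gamt window held GGGCGG 4 times, in each case as CCGCCC, starting 133, 114, 69 and 7 bases before the start, and no TATAAA. The Bhmt window held TATAAA 29 bases and AGGTCA 246 bases before the start. Among all 33469 windows of that length, 12.9% held TATAAA, 30.5% held GGGCGG, 14.1% held AGGTCA and 6.45% held GTTAAT. Of the other genes, Chdh also held GGGCGG 4 times, and Gnmt and Slc6a8 held it once each. Gnmt also held AGGTCA, 193 bases before the start. Sardh had 2 windows, 1 with AGGTCA 213 bases and the other with GTTAAT 176 bases before the start. A match describes the letters only.

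The files place the genes in build rn5. Gatm is at chr3:121249707-121266292 on the minus strand with 9 exons, Gamt at chr7:12484548-12487698 on the plus strand with 6 exons, Chdh at chr16:6009402-6042914 on the plus strand with 8 exons, and Gnmt at chr9:15471889-15475241 on the plus strand with 6 exons. Sardh is at chr3:11101704-11162636 on the minus strand with 21 exons and Pipox at chr10:66660853-66673403 on the minus strand with 8 exons. Bhmt, at chr2:42417998-42437489 on the minus strand with 8 exons, and Dmgdh, at chr2:42469965-42545059 on the plus strand with 16 exons, stand close together with only Bhmt2, a paralog of Bhmt, between them. Slc6a8 is listed at chr1:152879306-152888609 on the minus strand with 13 exons, whereas RefSeq places it on chromosome X in GRCr8.

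The 6 libraries held between 12499945 and 30466461 estimated counts, and the 9 genes took between 0.148% and 0.169% of them in the AL group and between 0.187% and 0.270% in the HD group. All 9 genes passed the filter of at least 30 counts in at least 1 rat, and each did so through rats of both diets. Levels are given as CPM after TMM normalization, which are counts scaled to a common library size. In edgeR's quasi-likelihood test, with *P* values adjusted over 11553 genes by the Benjamini-Hochberg method, none of the 9 genes passed the threshold of 0.05, against a background of 0% of all genes called and a smallest adjusted *P* value of 0.0980 among all genes. Before adjustment, *P* fell below 0.05 for 3 of the 9 (Gatm, Dmgdh and Sardh), each higher in the HD group, where the background was 4.66% of tested genes higher and 5.94% lower. Without rat 61 the count was 5, but the share of all genes without that rat is not given here. DESeq2 called 1 of the 9 (Gatm), where it called 1.58% of tested genes in either direction and 0.805% as higher, and it gave an unadjusted *P* value below 0.05 to the same number of members, 3, against 4.7% of tested genes as higher. All 9 log2 fold changes were above 0, with a median of 0.45, against 51.3% and a median of 0.0067 over all tested genes. Since the 9 genes were chosen with earlier results of these data known, these shares describe the set and do not test it. When the libraries were scaled to proximal tubule markers, the median of all genes moved to -0.55, and 3 of the 9 (Gatm, Pipox and Sardh) were above 0. All 9 were above that median, as they were above the median with TMM. This scaling moved all genes by a similar amount, so it gives no separate support.

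Gatm had the largest difference between the diets. It stood at 443, 344 and 288 CPM in AL rats 61, 71 and 88 and at 1358, 887 and 543 CPM in HD rats 64, 67 and 69. Every HD rat was above every AL rat, and the 3 HD rats were themselves 2.50-fold apart. The AL mean was 358 ± 78.2 CPM and the HD mean 929 ± 409 CPM (SD, n = 3 each), a 2.59-fold difference (log2 fold change 1.37, SE 0.33). Its unadjusted *P* value was 0.00367 in edgeR, which ranked 110 among all genes, and its adjusted *P* value of 0.368 missed the threshold. DESeq2 gave an adjusted *P* value of 0.00270 for the same difference, but 0.107 without rat 88 and 0.0626 without rat 64. Among the 1904 genes with a mean of at least 100 CPM, 4 had a larger log2 fold change. The exact permutation test over the 10 ways to divide the rats gave *P* = 0.1, the smallest value it allows with 3 rats a group. The groups were separated without overlap in 3 of the 9 genes (Gatm, Dmgdh and Sardh), each with HD above AL, against 7.25% of tested genes with HD above and 7.01% with HD below. Without rat 61, 5 of the 9 were separated. Full separation is easier to reach with fewer rats in a group, and the share of all genes without that rat is not given here.

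**Figure D1:**
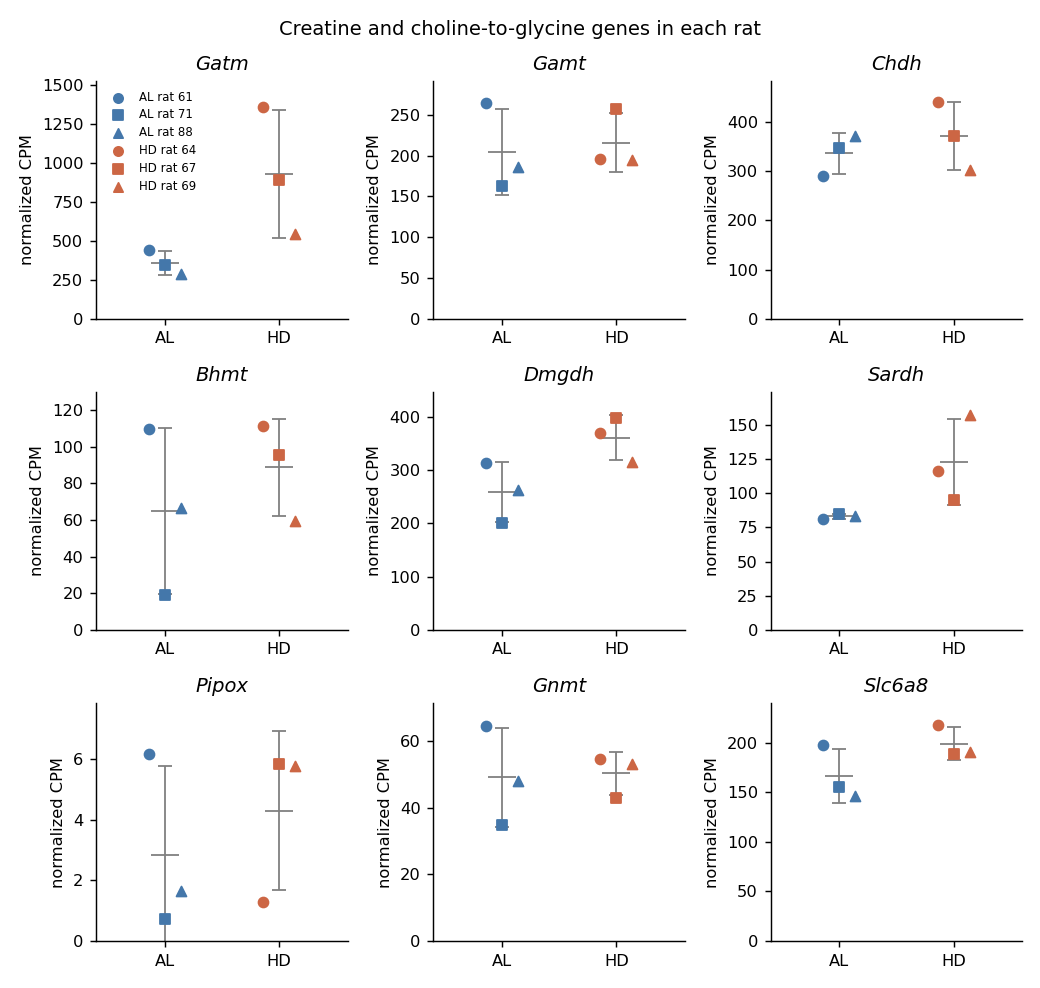
Normalized CPM of each of the 9 genes (vertical axes, each from 0) in the AL and HD groups, 1 point per rat, with the mean as a horizontal line and the SD over 3 rats as the error bar. The HD rats lie above the AL rats for Gatm, Dmgdh and Sardh, and the groups overlap for the other 6 genes.

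The next step and the transporter were much closer between the diets. Gamt stood at 264, 162 and 186 CPM in the AL rats and at 195, 258 and 194 CPM in HD rats 64, 67 and 69. The groups overlapped, and the highest value of all was that of AL rat 61. The log2 fold change was 0.08 (SE 0.21, adjusted *P* = 0.941), and an interval of 2 SE on each side ran from -0.34 to 0.49. Slc6a8, the creatine transporter, stood at 198, 156 and 146 CPM in the AL rats and at 218, 189 and 191 CPM in the HD rats. Only AL rat 61 reached into the HD range. Its log2 fold change was 0.26 (SE 0.15, adjusted *P* = 0.584), with an interval from -0.03 to 0.55.

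Ratios of genes within a rat do not depend on how libraries are scaled to each other, and 6 were compared. The ratios shown are of TPM, which is per transcript length. Their differences and *P* values were computed on estimated counts plus 0.5. There were 0.978, 1.23 and 0.902 Gatm transcripts per Gamt transcript in AL rats 61, 71 and 88 and 4.06, 2.01 and 1.63 in HD rats 64, 67 and 69. Thus the transcripts of the first and second steps were about equal in the AL group, while Gatm exceeded Gamt in each HD rat. The mean difference was 1.20 on the log2 scale (exact permutation *P* = 0.1, the smallest allowed, and 0.3 when adjusted over the 6 ratios). The ratio of Gatm to Slc6a8 was 3.91, 3.85 and 3.45 in the AL rats and 10.9, 8.20 and 4.98 in the HD rats. Again every HD rat was above every AL rat, by 1.03 on the log2 scale (exact permutation *P* = 0.1, adjusted 0.3). Both ratios share Gatm, and leaving out any 1 rat kept them above 0, at 0.81 to 1.47 and 0.77 to 1.34.

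**Figure D2:**
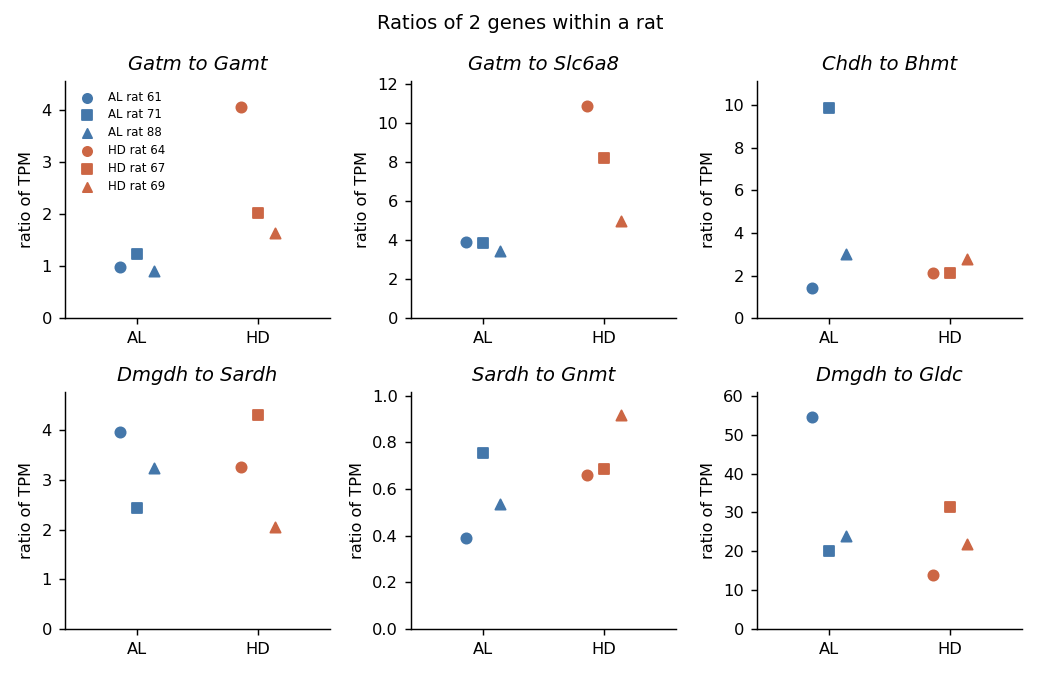
Ratios of TPM between 2 genes within each rat (vertical axes, each from 0) in the AL and HD groups, 1 point per rat. The HD rats lie above the AL rats for Gatm to Gamt and Gatm to Slc6a8, and the other 4 ratios overlap between the groups.

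Entry into the choline branch did not separate the groups. Chdh stood at 291, 347 and 373 CPM in the AL rats and at 441, 371 and 303 CPM in HD rats 64, 67 and 69. The groups overlapped, and only HD rat 64 was above every AL rat. The log2 fold change was 0.14 (SE 0.17, adjusted *P* = 0.834), with an interval of 2 SE from -0.20 to 0.48. The aldehyde product of Chdh can be oxidised to betaine by Aldh7a1, which had 503, 402 and 416 CPM in the AL rats and 663, 654 and 498 CPM in the HD rats (log2 fold change 0.46, SE 0.16, unadjusted *P* = 0.0222, adjusted *P* = 0.406 in edgeR). HD rat 69, with 498 CPM, was below AL rat 61. Aldh9a1, the other aldehyde dehydrogenase that can form betaine, had 911, 776 and 905 CPM in the AL rats and 910, 977 and 846 CPM in the HD rats, which overlapped (log2 fold change 0.08, SE 0.13, adjusted *P* = 0.888).

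Bhmt, the step that feeds the methyl group of betaine into methionine, varied more within the AL group than between the diets. It stood at 110, 19.0 and 66.4 CPM in AL rats 61, 71 and 88 and at 111, 95.5 and 59.2 CPM in the HD rats. The AL rats were 5.79-fold apart, with rat 71 far below the others. The log2 fold change was 0.45 (SE 0.55, adjusted *P* = 0.839), and its interval from -0.65 to 1.55 covers differences as large as that of Gatm. It was 1.06 without rat 61, 0.011 without rat 71, 0.25 without rat 64 and 0.68 without rat 69. The neighbouring paralog Bhmt2, a methyltransferase that uses S-methylmethionine, had 604, 501 and 593 CPM in the AL rats and 699, 779 and 604 CPM in the HD rats (log2 fold change 0.29, SE 0.14, adjusted *P* = 0.529). Rat 71 was the lowest for Bhmt2 as well, though by much less. Estimated counts can share out reads that fit both paralogs, and how far this affects the split between Bhmt and Bhmt2 was not tested. The ratio of Chdh to Bhmt was 1.43, 9.88 and 3.03 in the AL rats and 2.14, 2.10 and 2.76 in the HD rats (exact permutation *P* = 0.7, adjusted 0.84).

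The mitochondrial demethylases of dimethylglycine and sarcosine were both higher in the HD group before adjustment. Dmgdh stood at 314, 201 and 263 CPM in the AL rats and at 369, 398 and 315 CPM in HD rats 64, 67 and 69. The groups were separated only just, since HD rat 69 (315.0 CPM) lay directly above AL rat 61 (313.9 CPM). The AL mean was 259 ± 56.3 CPM and the HD mean 361 ± 42.4 CPM (SD, n = 3 each). Its log2 fold change was 0.48 (SE 0.18, unadjusted *P* = 0.0324, adjusted *P* = 0.426 in edgeR and 0.255 in DESeq2). The unadjusted edgeR *P* value rose to between 0.0701 and 0.100 without rat 71, 88, 64 or 67.

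Sardh stood at 81.4, 84.9 and 83.6 CPM in the AL rats and at 116, 95.1 and 157 CPM in HD rats 64, 67 and 69. The AL rats were nearly level, 1.04-fold apart, and all HD rats were above them, with rat 69 the highest. Means were 83.3 ± 1.77 CPM for AL and 123 ± 31.7 CPM for HD (SD, n = 3 each). The log2 fold change was 0.56 (SE 0.18, unadjusted *P* = 0.0163, adjusted *P* = 0.406 in edgeR and 0.166 in DESeq2), and it was 0.35 without rat 69. The exact permutation test gave *P* = 0.1 for Dmgdh and for Sardh, the smallest value it allows.

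Within each diet, the rats with more Dmgdh were not those with more Sardh. In the HD group, rat 69 was the highest for Sardh and the lowest for Dmgdh, and rat 67 was the reverse. The ratio of Dmgdh to Sardh was 3.97, 2.44 and 3.23 in the AL rats and 3.26, 4.31 and 2.06 in the HD rats, a mean difference of -0.037 on the log2 scale (exact permutation *P* = 1). When the libraries were scaled to proximal tubule markers, the log2 fold change was -0.055 for Dmgdh and 0.0095 for Sardh. Both were above the all-gene median of -0.55 under that scaling, which moved all genes by a similar amount.

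The remaining enzymes of sarcosine did not separate the diets. Gnmt, which makes sarcosine, stood at 64.6, 34.8 and 48.2 CPM in the AL rats and at 54.7, 43.0 and 53.2 CPM in the HD rats. The HD values lay within the AL range, and the log2 fold change was 0.03 (SE 0.22, adjusted *P* = 0.977), with an interval of 2 SE from -0.41 to 0.48. It was -0.025 when only library size was used for scaling. The ratio of Sardh to Gnmt was 0.390, 0.754 and 0.536 in the AL rats and 0.658, 0.684 and 0.915 in the HD rats (exact permutation *P* = 0.3, adjusted 0.6).

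Pipox was scarce and uneven. It had 6.19, 0.721 and 1.65 CPM in the AL rats and 1.27, 5.85 and 5.79 CPM in the HD rats, from 78, 13, 25, 15, 117 and 181 estimated counts. AL rat 61 was the highest of all 6 rats and AL rat 71 the lowest, 8.60-fold apart, with HD rat 64 next to the lowest. The log2 fold change of 0.64 had an SE of 0.82 (adjusted *P* = 0.848), so a difference of that size was not detectable with these rats. It was 1.89 without rat 61 (unadjusted *P* = 0.0425, adjusted *P* = 0.319) and 0.16 without rat 71, the ends of the range with 1 rat left out, and omitting any other rat also moved it by over 1.5 times.

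**Figure D3:**
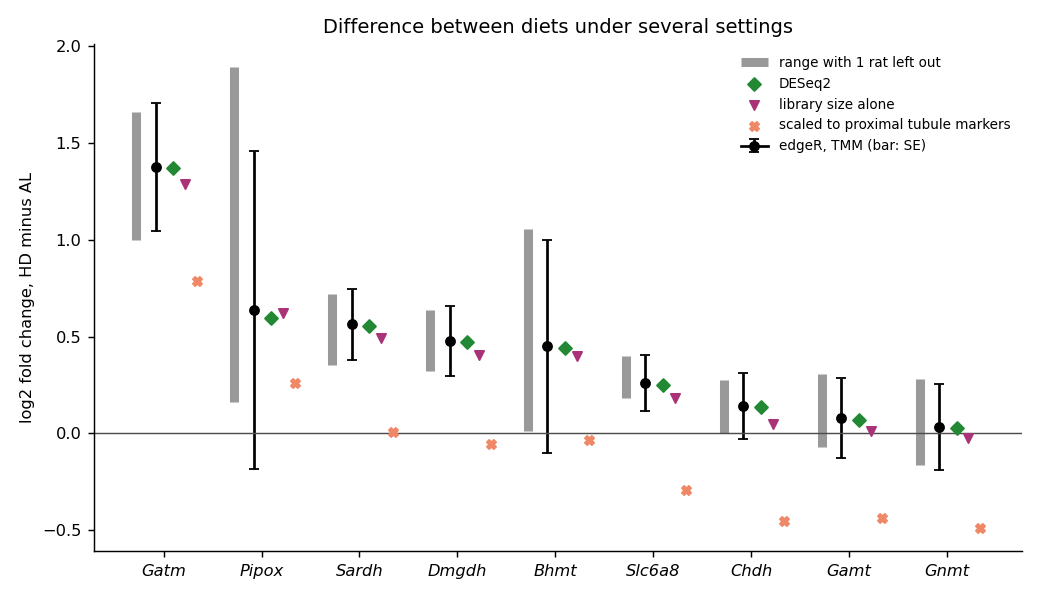
Log2 fold change of HD against AL (vertical axis) for the 9 genes, ordered by size. Black circles with bars are edgeR with TMM normalization and its SE, grey bars the range with any 1 rat left out, diamonds DESeq2, triangles scaling by library size alone and crosses scaling to proximal tubule markers, under which the median of all genes is -0.55, all 9 genes lie above that median and 6 of them (all but Gatm, Pipox and Sardh) lie below 0. Gatm is above 0 in every setting shown.

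Per transcript length, Gatm was the most abundant of the genes and Pipox the least. The mean TPM over the 6 rats was 433 for Gatm, 245 for Gamt, 161 for Chdh, 159 for Dmgdh, 80.5 for Gnmt, 71.6 for Slc6a8, 62.8 for Bhmt, 52.1 for Sardh and 3.24 for Pipox. The first place of Gatm came from the HD group, where its mean was 616 ± 254 TPM (SD, n = 3) against 251 ± 39.5 TPM in the AL group, close to the 243 ± 39.9 TPM of Gamt there. Of the 8 pairs of neighbours in this order, 3 kept their order in 6 of 6 rats, namely Gamt above Chdh, Dmgdh above Gnmt and Sardh above Pipox. Each of these gave *P* = 0.03125 in an exact paired permutation test, the smallest value that 6 rats allow. Adjusted over the 8 pairs it was 0.0833, above the threshold. No pair could pass after adjustment unless more pairs had reached the smallest value, so the adjusted value says little about any 1 pair. The order was also taken from the same rats on which it was tested. The other 5 pairs (Gatm and Gamt, Chdh and Dmgdh, Gnmt and Slc6a8, Slc6a8 and Bhmt, Bhmt and Sardh) kept their order in only 3 or 4 of 6 rats and did not differ beyond their spread.

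**Figure D4:**
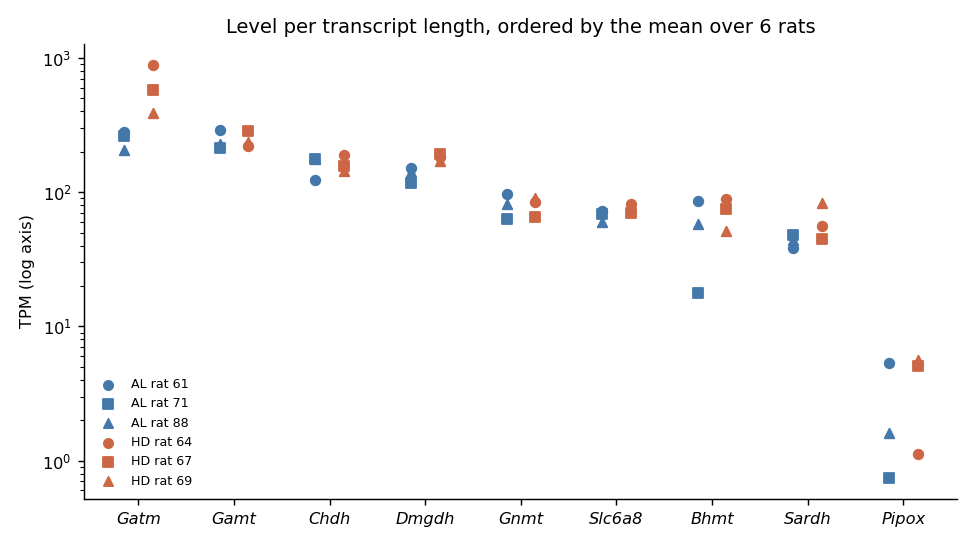
TPM of the 9 genes (vertical axis, log scale) in each of 6 rats, ordered from left to right by the mean over all rats, with AL and HD rats set side by side. Gatm reaches 889 TPM in HD rat 64, and Pipox lies at or below 5.58 TPM in every rat.

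Some rats stood at an end of their group for several of the 9 genes. Rat 61 was the highest AL rat for 7 of the 9 genes, all but Chdh and Sardh, where it was the lowest. Rat 71 was the lowest AL rat for 5 genes (Gamt, Bhmt, Dmgdh, Pipox and Gnmt). Among the HD rats, rat 64 was the highest for 5 genes (Gatm, Chdh, Bhmt, Gnmt and Slc6a8), and rat 69 the lowest for 5 (Gatm, Gamt, Chdh, Bhmt and Dmgdh). The order of the rats is a description of single libraries, and the 9 genes in a rat share that library. How often each rat stood at an end over all tested genes is not given here, so these counts are not read as a trait of the 9 genes.

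Genes whose levels followed those of a member most closely over the 6 rats were sought by the root mean square difference of centred log2 levels, among genes with a mean of at least 10 CPM. The closest to Gatm were Ugt2b15, a UDP-glucuronosyltransferase, with a difference of 0.134, Slc12a8, a solute carrier, with 0.155, and Slc22a6, the organic anion transporter of the proximal tubule, with 0.207. Slc22a6 had 300, 279 and 210 CPM in the AL rats and 739, 512 and 410 CPM in the HD rats, and its rats stood in the same order within each group as for Gatm. Slc22a6 was also among the proximal tubule markers. The closest to Chdh were Scpep1, Osbpl11 and Tmx2, with differences of 0.0567, 0.0615 and 0.0620, and the closest to Sardh were Csf2rb, Kcnq1 and Slc2a8, with 0.0565, 0.101 and 0.117. These are likenesses over 6 rats, picked from many genes.

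Of 61 further genes of the surrounding pathways, also chosen with earlier results of these data known, 51 could be tested. None was called by edgeR's adjusted *P* value, 7 were higher and 2 lower in the HD group at an unadjusted *P* value below 0.05 (17.6%, against 10.6% of all genes in either direction), and their median log2 fold change was 0.14. The unadjusted count moved between 1 (without rat 64) and 17 (without rat 69) when 1 rat was left out, and was 3 without rat 88 and 5 without rat 67. The shares of all genes in these fits are not given here. Glycine cleavage and the exchange of glycine with serine held 3 of them among 6 tested genes, all higher. Gldc, the decarboxylase that starts glycine cleavage, had 6.51, 11.4 and 12.4 CPM in the AL rats and 30.3, 14.4 and 16.3 CPM in the HD rats (log2 fold change 1.00, SE 0.35, adjusted *P* = 0.408). Amt, the aminomethyltransferase of the same complex, had a log2 fold change of 0.55 (SE 0.17, adjusted *P* = 0.406), and Shmt2, the mitochondrial serine hydroxymethyltransferase, had 0.45 (SE 0.14, adjusted *P* = 0.406). HD rats were above AL rats for all 3, as for 7.25% of all tested genes. Since the 3 were named for their unadjusted *P* value in edgeR, this separation gives no separate support. The ratio of Dmgdh to Gldc overlapped between the groups (exact permutation *P* = 0.5, adjusted 0.75).

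The genes that handle arginine and ornithine around Gatm held 2 of 9 at an unadjusted *P* value below 0.05, both higher. Oat, which removes the ornithine that Gatm releases, had 1982, 1580 and 1762 CPM in the AL rats and 2618, 2031 and 2291 CPM in the HD rats (log2 fold change 0.38, SE 0.16, adjusted *P* = 0.459). Slc7a7, a subunit of the basolateral exporter of arginine and other cationic amino acids, had a log2 fold change of 0.60 (SE 0.23, adjusted *P* = 0.425). For both genes the HD rats were above the AL rats, which gives no separate support, since they too were named for their unadjusted *P* value in edgeR. Choline uptake and betaine formation held 4 of 11, in both directions. Beside Aldh7a1, Slc6a20, an imino acid and betaine carrier, was higher (log2 fold change 0.53, SE 0.19, adjusted *P* = 0.409), while the choline transporter Slc44a1 (-0.45, SE 0.17, adjusted *P* = 0.426) and the betaine and GABA transporter Slc6a12 (-1.11, SE 0.45, adjusted *P* = 0.455) were lower. None of the 10 tested genes of the methionine cycle and transsulfuration, the 10 of choline phospholipids, the 3 of the electron transfer flavoprotein chain that takes electrons from Dmgdh and Sardh, or the 2 creatine kinases had an unadjusted *P* value below 0.05.

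The tissue label was checked against kidney markers, and the levels of some of them differed between the groups. Umod, the uromodulin of the thick ascending limb, stood between 2721 and 4061 CPM in every rat. The summed level of 8 markers of the whole proximal tubule was 6814 to 9781 CPM in the AL group and 11124 to 13754 CPM in the HD group, and 5 of the 8 were higher in the HD group at an unadjusted *P* value below 0.05. Slc34a1, the phosphate cotransporter, had a log2 fold change of 0.70 (SE 0.24, adjusted *P* = 0.406), and Pck1, of gluconeogenesis, had 0.76 (SE 0.44, adjusted *P* = 0.596). The rise was not shared by the whole list, in which 7 genes were higher and 1 lower. Lrp2 had 0.19 (SE 0.16, adjusted *P* = 0.739) and Cubn, the lower 1, had -0.05 (SE 0.14, adjusted *P* = 0.951). The sum was lowest in rat 71 among the AL rats and highest in rat 64 among the HD rats. The low sum of rat 71 included a low Pck1, at 2558, 724 and 2480 CPM in AL rats 61, 71 and 88. Slc34a1, at 2268, 1618 and 1366 CPM, was lowest in rat 88. Markers of the early segments and of the straight segment overlapped between the groups. Podocyte markers summed to 56.6 to 132 CPM in the AL group and 197 to 422 CPM in the HD group, with 7 of 7 higher and 4 of them at an unadjusted *P* value below 0.05. Distal convoluted tubule markers summed to 63.0 to 131 CPM and 191 to 699 CPM, with both tested genes higher at that threshold. Inner medulla markers were lower, at 426 to 995 CPM in the AL group and 223 to 352 CPM in the HD group, with 5 of 5 lower at that threshold. Sums for the thick ascending limb, principal and intercalated cells, endothelium, smooth muscle with mesangium, and adipose tissue overlapped between the groups, though some of their genes differed. All 5 thick ascending limb markers were lower and all 5 adipose markers higher, 1 of each at that threshold. Also at it were 3 principal cell markers (1 higher, 2 lower), 2 of intercalated cells (1 higher, 1 lower), 1 of endothelium (lower) and 2 of smooth muscle with mesangium (1 higher, 1 lower). Macrophage and leukocyte markers overlapped in their sum, at 239 to 407 CPM and 143 to 309 CPM, with 7 of 7 tested genes lower and 5 of them at that threshold, which 4.66% of all genes passed as higher and 5.94% as lower. Liver markers, which bear on Gamt, Bhmt and Gnmt as enzymes abundant in liver, summed to between 3.24 and 4.28 CPM in every rat, and no marker of any list was at 0 in all rats. In whole tissue, fewer cells of a type and less RNA per cell cannot be told apart. The part of these marker differences in the results for the 9 genes was not tested. Under the scaling to proximal tubule markers the log2 fold change of Gatm was 0.79 (edgeR adjusted *P* = 0.0567), against 1.37 with TMM. The median of all genes was then -0.55, and 6025 of 11553 genes had an unadjusted *P* value below 0.05. Slc22a6, one of the genes closest to Gatm, is among the markers used for this scaling.

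**Figure D5:**
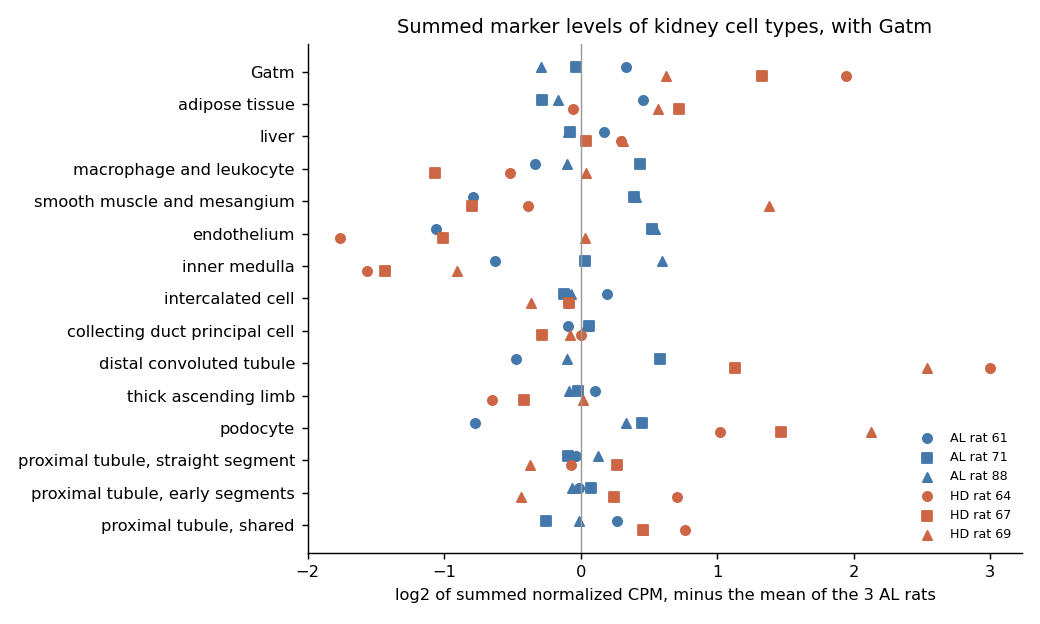
Summed normalized CPM of marker lists in each rat, on a log2 scale and relative to the mean of the 3 AL rats (horizontal axis), with Gatm in the top row. The HD rats lie to the right of the AL rats for Gatm, the shared proximal tubule markers, podocytes and the distal convoluted tubule, and to the left for the inner medulla.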

How the data were processed

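Kidney RNA of 6 rats, 3 on each diet, was sequenced as single-end reads, 1 library per rat, and each rat was assigned to AL or HD by its labelled diet. The authors assigned reads to transcripts with RSEM 1.1.15 and UCSC gene definitions for rn5. The authors deposited estimated counts (expected counts, not normalized) and TPM values per transcript. Filters on the reads are not given in the sources used here. Antisense and paralogous transcripts may share reads, since use of strand is not stated.

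Estimated counts were summed per gene and rounded. Genes with at least 30 counts in at least 1 rat were tested with edgeR 4.0.16 in R 4.3.3 (quasi-likelihood, TMM, diet as the only factor), with Benjamini-Hochberg adjustment and a threshold of 0.05. The SE is the log2 fold change divided by the square root of F. The common biological coefficient of variation was 0.242. DESeq2, the tool of the study, was run here in version 1.42.0. It and limma 3.58.1 on log2(TPM + 1) were alternatives. So were other normalizations, filters, posterior mean counts, pseudocounts, scaling to 8 proximal tubule markers and leaving out each rat. DESeq2 without each rat was added after seeing the data. Exact two-sided permutation tests (scipy 1.17.1) used log2(CPM + 0.5) for single genes and log2 ratios of estimated counts plus 0.5 for ratios. The exact paired test of the order of levels used log2 ratios of TPM. The labels do not give litters or cages, so *P* values measure the spread between these rats. The scripts were checked on simulated counts.

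The 9 genes and all lists were chosen with earlier results of these data known. The text names the 9 genes, pathway genes at an unadjusted *P* value below 0.05 or used in a ratio, at most 2 markers of the highest level per list, and the 3 genes most like Gatm, Chdh and Sardh. Bhmt2, the paralog beside Bhmt, and Aldh9a1, at the same step as Aldh7a1, were named after their values were seen. So were the proximal tubule markers Lrp2 and Cubn. Promoter sequences are from RefSeq (GRCr8). FPKM values were not used here.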

Additional observations from a re-analysis of the deposited data

How the results depend on the processing

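No paired analysis was possible because the labels give rat numbers only, and no number is shared between the diets. With edgeR, 0 of the 9 genes were called under every normalization, filter and omission of 1 rat. DESeq2 called 1 (Gatm), and 0 to 2 with 1 rat left out, adding Dmgdh without rat 61 (adjusted *P* = 0.0270) and Sardh without rat 67 (0.0206). The count of genes at an unadjusted *P* value below 0.05 was 3, and 2 to 5 with 1 rat left out (2 to 6 in DESeq2), the most without rat 61. The number of genes with fully separated groups went from 3 to between 3 and 5, and was 5 without rat 61. For the counts with 1 rat left out, the shares of all genes are not given here. Leaving out 1 rat kept 7 to 9 of the 9 log2 fold changes above 0.

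Scaling to proximal tubule markers left 3 of 9 above 0, with all 9 above the shifted median of all genes, and moved the pathway count at an unadjusted *P* value below 0.05 from 9 to 23, where 6025 of all 11553 genes were also below it. Because this scaling moved all genes by a similar amount, the standing of the 9 against the median was largely set by the TMM fit. It gave -0.44 for Gamt, -0.45 for Chdh, -0.037 for Bhmt, -0.055 for Dmgdh, -0.49 for Gnmt and -0.29 for Slc6a8. The pathway count ranged from 1 to 17 with 1 rat left out, and from 1 to 20 in DESeq2 (15 without rat 61). Gnmt was -0.025 with library size alone (-0.010 as a mean difference of log2 CPM) and -0.00091 with limma on TPM. With 1 rat left out, the log2 fold change ranged from -0.068 (without rat 67) to 0.31 for Gamt (DESeq2 -0.072 and -0.070 without rats 71 and 67, up to 0.29), 0.0016 to 0.28 for Chdh (DESeq2 -0.0086 to 0.26) and -0.16 to 0.28 for Gnmt (DESeq2 -0.17 to 0.27, with -0.039 without rat 64 and -0.018 without rat 69), and the log2 difference of ratios from -1.24 to 0.15 for Chdh to Bhmt and -0.28 to 0.25 for Dmgdh to Sardh. Gatm stayed between 1.00 and 1.66 in edgeR with 1 rat left out, and its DESeq2 adjusted *P* value ran from 8.43e-08 to 0.107. The cause of these shifts was not tested. The number of neighbouring pairs ordered alike in all rats was 3 under each alternative run on levels, but the pairs were not the same in each, since Dmgdh stood above Chdh with counts per transcript length and without rat 71 or rat 88. With 3 rats a group, the SE of 0.55 for Bhmt and 0.82 for Pipox limits what could be detected for these genes.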
